A study of Mus musculus with 13 samples.

Results

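Early progenitors with lymphoid and myeloid potential (EPLMs) of wild-type (WT) mice were profiled on 3 arrays, 1 per mouse, named WT1, WT2 and WT3, out of the 13 arrays of the series. An array was chosen where its title gives both WT and EPLM, and no other array entered any value. The mice came from the cross B6CF1 x C57BL/6 and were 7 weeks old. They were littermates of the transgenic mice of the study and carried no OBF1 transgene. The cells were sorted from bone marrow depleted of erythrocytes, as CD93+ and NK1.1- cells of the proB gate, which is B220+ and c-kit+. The sorted population is a mixture of progenitors and not a clone. Each mouse gave 1 sort, 1 RNA and 1 array, so that the animal, the sort and the labelling cannot be told apart in a difference between mice. In such a bulk sort fewer cells of a type and less RNA per cell cannot be told apart either.

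EPLMs stand at the entrance of the B lineage. Besides B cells, T cells and myeloid cells can be obtained from them under suitable conditions. In the textbook order, E proteins such as E2A and the signal of the IL-7 receptor switch on EBF1, and EBF1 switches on Pax5, which commits the cell. Meanwhile the recombinase made of RAG1 and RAG2 begins to join the gene segments of the immunoglobulin heavy chain. Progenitors of this region of the hematopoietic tree also give plasmacytoid dendritic cells, a type of dendritic cell that makes interferon.

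A level is the log2 of the deposited intensity plus 1, read from the brightest probe set of a gene among those with 1 gene symbol. Values for single mice are given on this log2 scale in the order WT1, WT2 and WT3, and means are given ± SD with n = 3. A percentile is the place of a gene's probe set among the 18193 genes measured. Each probe set binds with its own strength, so that neither levels nor percentiles rank the mRNA amounts of different genes. The background was read from 128 genes of olfactory, vomeronasal and taste receptors, hair keratin-associated proteins and lens crystallins, which blood cells are not known to use. Their 95th percentile, the detection limit, was a log2 level of 4.26, 4.38 and 4.40 on the 3 arrays, or an intensity of 18.1, 19.8 and 20.1. A gene is called above or below the limit where limma's test of the mean distance from it, 2-sided and adjusted over all 45037 probe sets, gave an adjusted p under 0.05, and near the limit otherwise.

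Of the 18193 genes, 10085 were above the limit, which is 55.4 percent, 1559 were near it and 6549 were below it. With the limit at the 99th percentile, a log2 level of 7.83, 7.35 and 7.49, 7151 genes were above, so that calls of genes with levels under these values, such as Pax5, depend on the limit. Levels also depend on the probe set. Over the 9010 genes with 2 or more probe sets, the brightest stood a median of 2.55 over the dimmest. Of the 6416 such genes above the limit, 3495 had a probe set that was not above it. On the second brightest probe set, the distance from the limit was 1.43 for Ccnd3 in place of 8.66. It was 3.08 for Adam10 in place of 8.94 and 4.61 for Cfl1 in place of 11.24. The 3 arrays resembled each other closely. Over the genes measured, which share their 3 arrays and are no replicates, the levels correlated with r = 0.994, 0.996 and 0.993 for the pairs WT1 with WT2, WT1 with WT3 and WT2 with WT3. The median SD of the genes above the limit was 0.14. Intensities had been made equal in distribution over the arrays before deposit, which holds down the spread of the brightest genes. The intensity at the 3' end of Actb over that at its 5' end, a sign of RNA quality, was 4.12, 4.94 and 5.91, and the ratio of Gapdh was 5.74, 5.81 and 6.24. Both ratios were lowest in WT1 and highest in WT3. Xist, the RNA that silences an X chromosome in females, was at 14.96, 14.65 and 14.61, while the Y-linked genes Eif2s3y and Kdm5d were below the limit on average and Uty was near it.

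**Figure D1:**
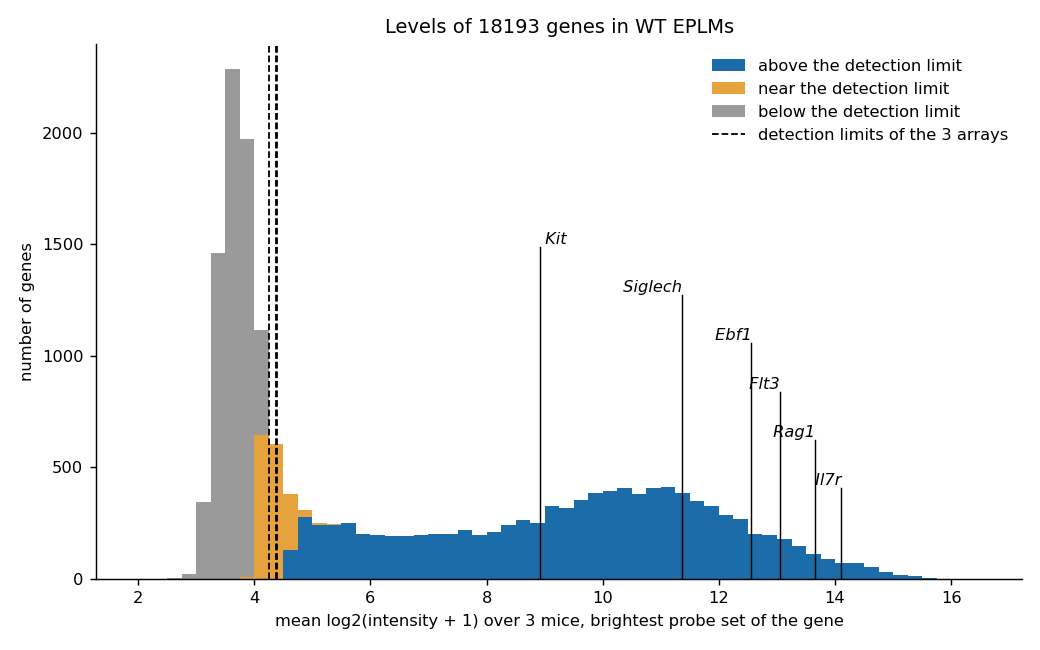
Number of genes (y axis) by their mean log2(intensity + 1) over the 3 WT mice (x axis), coloured by their class against the detection limit, with the limits of the 3 arrays as dashed lines and 6 EPLM marker genes as vertical lines. The levels form a narrow peak below the limits and a broad hill above them, and all 6 markers lie on the broad hill, Kit at 8.91 and Il7r at 14.11.

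The 6 marker genes of EPLMs were all above the limit, and none ranged over 2-fold between mice. Il7r, the receptor chain for IL-7, was at 14.09, 14.04 and 14.20, with a mean of 14.11 ± 0.08 and an adjusted p of 7.19e-14 from limma, and its probe set was at the 98.7th percentile. Flt3, the receptor of early lymphoid progenitors for FLT3 ligand, was at 13.07, 12.90 and 13.19, at the 95.9th percentile. Rag1, the recombinase subunit that cuts DNA, was at 13.67, 13.65 and 13.63. These 3 genes were level across the animals. Ebf1, the factor that specifies the B lineage, was at 12.71, 12.83 and 12.15, lower in WT3 than in the other mice. Siglech, a surface lectin of plasmacytoid dendritic cells and their progenitors, was at 11.21, 11.43 and 11.46. Kit, which encodes the c-kit receptor of the gate, was at 8.88, 8.85 and 9.0 and at the 65.5th percentile, but its other probe set was not above the limit, so that its level depends on the probe set read.

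The genes of the positive stains of the gate, Ptprc, which encodes B220, Cd93 and Kit, were all above the limit. Ptprc was at 14.20, 14.41 and 14.35 and Cd93 at 14.23, 13.75 and 14.07. Spn, which encodes CD43 of early B lineage cells, was at 12.97, 12.96 and 12.97. Ighm, the μ heavy chain gene, was at 14.28, 14.26 and 13.92, with 4 of its 11 probe sets above the limit. Its transcripts do not need a rearranged gene, since unrearranged μ loci are transcribed in early progenitors too. Of the 13 genes of surface stains that could be measured, 9 were above the limit, beside 55.4 percent of all genes, 1, the T cell gene Cd3e, was near it and 3 were below it. The counts of the other lists are to be read against the same share. The genes below were Il2ra, which encodes CD25 of preB cells, at 3.60, 4.44 and 3.88, Fcer2a, which encodes CD23, at 4.03, 3.88 and 3.97, and Cr2, which encodes CD21, at 3.75, 3.74 and 3.60. Itgam, which encodes CD11b of myeloid cells, was a little above the limit at 4.94, 4.97 and 4.91. Cd8a stood apart in 1 mouse, with 6.63, 6.68 and 8.42.

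**Figure D2:**
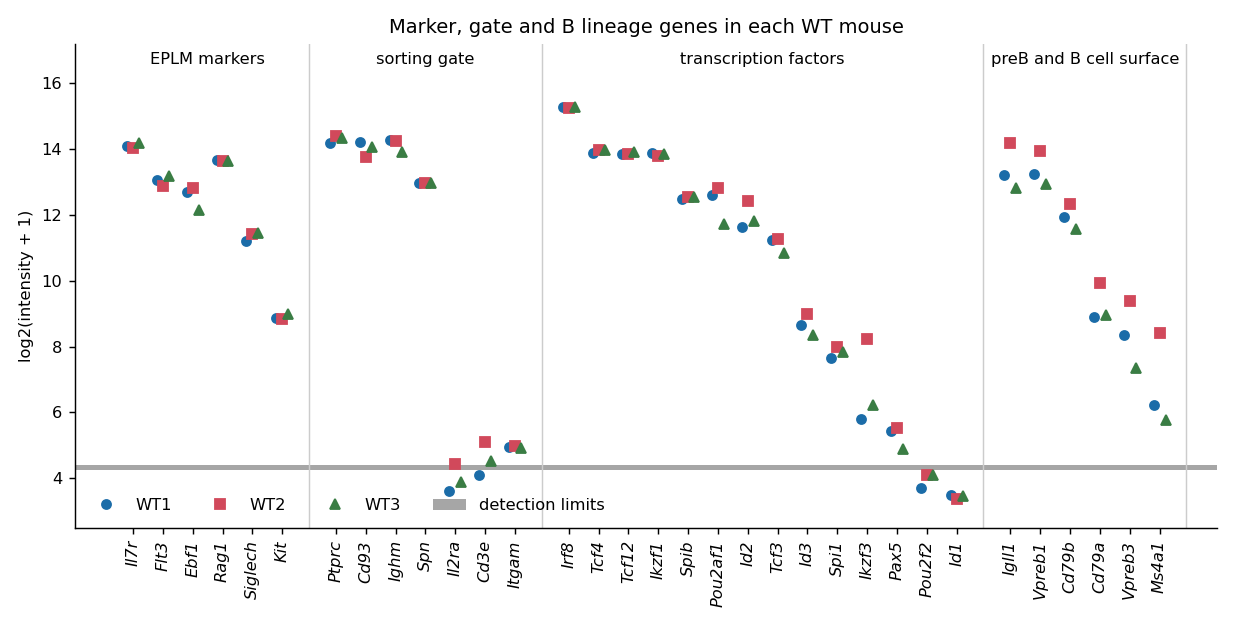
Log2(intensity + 1) (y axis) of marker, gate, transcription factor and preB or B cell surface genes (x axis) in each of the 3 WT mice, 1 point per mouse, with the range of the detection limits as a grey band. Most genes show 3 points close together. Ikzf3, Ms4a1 and Vpreb3 show a high point of WT2, and Ebf1 and Pou2af1 a low point of WT3.

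Transcription factors of the B lineage were high in EPLMs of every mouse, while Pax5 lay close to the limit. Of 22 measured factors, 20 were above the limit, with a median level of 12.18 beside 5.61 for all genes. The E protein genes Tcf3, Tcf12 and Tcf4, whose products bind E-boxes, were at 11.24, 11.26 and 10.85, at 13.86, 13.87 and 13.91 and at 13.88, 13.97 and 13.97. Irf8, a factor of dendritic, myeloid and B cells, was at 15.29, 15.24 and 15.28, which put it at rank 15 of all genes. Ikzf1, which encodes Ikaros, was at 13.89, 13.79 and 13.85, and Spib, an Ets factor, at 12.47, 12.56 and 12.54. The last 3 genes varied little, with SDs of 0.02, 0.05 and 0.04.

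Other factors of the same list differed between the animals. Pou2af1, the gene of OBF1, was at 12.62, 12.82 and 11.73, and Lef1, a partner of beta-catenin, at 8.96, 9.67 and 7.87. Irf4, a factor of preB and plasma cells, was at 10.38, 10.58 and 9.20, with its other probe set not above the limit. In these 3 genes, as in Ebf1 and Tcf3, WT3 was the lowest. Lef1 and Irf4 were at least 2-fold lower in WT3 than in both other mice. For Pou2af1, the paper's qPCR found no detectable endogenous transcript in WT EPLMs, unlike the array level here. The reason for this difference was not tested. Ikzf3, which encodes Aiolos and rises in preB cells, was at 5.79, 8.23 and 6.21, with WT2 far above both others. Pax5, the factor of commitment, was at 5.44, 5.53 and 4.89, only a little above the limit (adjusted p = 0.000683 from limma) and with its other probe set not above it. Of the Id genes, whose products hold E proteins off DNA, Id2 was at 11.64, 12.43 and 11.81 and Id3 at 8.65, 8.999 and 8.34, while Id1 was below the limit at 3.49, 3.37 and 3.45. Pou2f2, which encodes Oct2, was below the limit as well, at 3.70, 4.10 and 4.11. The genes of the SIAH proteins, which mark OBF1 for breakdown, were above it, Siah1a at 10.66, 10.80 and 10.58 and Siah2 at 9.64, 9.78 and 9.45.

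Among stem and progenitor genes, those shared with lymphoid progenitors were high, and some of those of stem cells were at or under the limit. Myb, needed for the growth of progenitors, was at 15.02, 14.94 and 14.93. Hoxa9, a homeobox factor of early progenitors, was at 13.04, 12.83 and 13.28, although its other probe set was not above the limit. Bmi1 was at 12.81, 12.81 and 12.79 and Cd48 at 12.49, 12.41 and 12.30. None of these ranged over 2-fold between mice. Slamf1, which encodes CD150 of stem cells, was at 4.14, 5.08 and 4.004 and near the limit. Mecom and Tek, regulators of stem cells, were below the limit, with means of 3.82 ± 0.20 and 3.42 ± 0.07. Of the 20 genes measured, 15 were above the limit, beside 55.4 percent of all genes, 3 near it and 2 below it.

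The surrogate light chain, which stands in for the light chain in the preB receptor, was already transcribed in EPLMs. Its genes Vpreb1 and Igll1 were at 13.25, 13.96 and 12.95 and at 13.22, 14.20 and 12.83, both highest in WT2 and lowest in WT3. Vpreb2 is a near-identical copy of Vpreb1, so that their signals may be shared. The other probe set of Igll1 was not above the limit. Vpreb3, whose product assists the receptor, was at 8.36, 9.40 and 7.36, and Cd79a and Cd79b, the signalling chains, were at 8.89, 9.92 and 8.95 and at 11.95, 12.34 and 11.57. Ms4a1, which encodes CD20, was at 6.23, 8.40 and 5.78. These 6 genes were each highest in WT2. In the whole list of surrogate light chain, preB receptor and B cell surface genes, 11 of the 13 genes that exceeded the limit on at least 1 array were highest in WT2, beside 34.8 percent of all such genes, and 9 were lowest in WT3, beside 24.9 percent. Both counts were the same after centring the arrays on ribosomal protein genes, where WT2 was the highest in 33.6 percent and WT3 the lowest in 32.2 percent of all genes. WT3 also had the highest 3' over 5' ratios, whose part was not tested. Sdc1, which encodes syndecan-1, ran the other way, with 12.78, 12.32 and 12.98. Cd24a, a surface protein of B lineage precursors, was level at 15.13, 15.17 and 14.99.

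Vpreb1 and Igll1 lie close together on chromosome 16. Their promoters in RefSeq (build GRCm38.p6, 300 bases each, from 250 before to 50 after the start of the gene) are shown because both genes had the same order of mice and are known targets of E proteins and EBF1. Capitals mark the E-box CAGGTG, searched on both strands. It occurs in 20.2 percent of all 32851 promoters of the table, so that a match alone says little, and CACCTG is the same motif on the other strand. The Vpreb1 promoter is at chr16:16869206-16869505 on the minus strand and that of Igll1 at chr16:16863936-16864235 on the minus strand.
Vpreb1: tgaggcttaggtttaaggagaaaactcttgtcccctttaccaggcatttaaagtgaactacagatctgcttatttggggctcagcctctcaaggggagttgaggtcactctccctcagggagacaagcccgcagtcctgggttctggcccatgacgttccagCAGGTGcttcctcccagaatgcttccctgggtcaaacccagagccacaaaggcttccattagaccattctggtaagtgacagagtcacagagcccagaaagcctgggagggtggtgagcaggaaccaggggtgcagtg
Igll1: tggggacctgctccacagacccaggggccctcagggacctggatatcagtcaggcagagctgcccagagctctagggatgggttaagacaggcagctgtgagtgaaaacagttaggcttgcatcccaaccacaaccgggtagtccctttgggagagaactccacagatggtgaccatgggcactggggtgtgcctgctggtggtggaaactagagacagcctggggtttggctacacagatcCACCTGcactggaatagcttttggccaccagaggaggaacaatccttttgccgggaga

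Genes of the signalling machinery below the B cell receptor were found wherever they could be measured. All 15 measured kinases and adaptors were above the limit, with a median level of 11.51. Blnk, the adaptor that links Syk to phospholipase C, was at 13.54, 13.53 and 13.41, Syk itself at 12.54, 12.70 and 12.48 and Ptpn6, the phosphatase SHP-1, at 13.06, 12.99 and 13.01. The list was steady between mice, with a median SD of 0.12. Its largest SD was that of Dok3, an inhibitory adaptor, at 8.16, 8.34 and 7.13, where WT3 was the low mouse.

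All 11 measured genes of V(D)J recombination and end joining were above the limit too. Dntt, the enzyme that adds nucleotides at junctions, was at 14.10, 14.13 and 14.13, and Hmgb2, a cofactor of the recombinase, at 14.44, 14.37 and 14.31. Rag2, the partner of Rag1, was at 11.51, 11.39 and 11.23. Xrcc6, which encodes Ku70, was at 12.51, 12.84 and 12.74, but its other probe set was not above the limit. Lig4, the ligase that closes the break, was the most variable member, at 9.94, 10.32 and 9.32, with WT3 the lowest. Rag1 and Dntt were steady, with SDs of 0.02 and 0.02.

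Receptors for cytokines of the lymphoid and the myeloid branch were found side by side. Of 31 measured receptor genes, 26 were above the limit, beside 55.4 percent of all genes. Besides Il7r and Flt3, the highest were Tgfbr1, a receptor of TGF-beta, at 12.52, 12.61 and 12.63, and Csf2rb, the shared chain of the receptors for IL-3, IL-5 and GM-CSF, at 12.09, 12.65 and 12.46. Crlf2, which encodes the TSLP receptor and pairs with the IL-7 receptor chain, was at 11.86, 11.95 and 12.19. Csf1r, the receptor for M-CSF, was at 11.62, 11.79 and 10.997, lowest in WT3. The 4 genes near the limit included Epor, the receptor of erythroid cells, at 4.57, 4.29 and 3.997, and Il2rb, a chain of the IL-2 and IL-15 receptors, at 4.27, 6.35 and 4.66, which was high in WT2 alone. Il2ra was the only member below it. Among the JAK, STAT and SOCS genes that carry the signal, 18 of 19 were above the limit. Jak1, which sits on the IL-7 receptor chain, was at 11.27, 11.25 and 11.01, and Jak3, which sits on the common gamma chain, was at 5.48, 5.60 and 5.49. Stat5a and Stat5b, the STATs of IL-7, were at 8.62, 8.73 and 8.42 and at 10.95, 10.72 and 10.81, both with another probe set that was not above the limit. Of the inhibitors, Socs7 was at 11.93, 12.01 and 12.11 and Socs4 at 11.68, 11.64 and 11.73, Socs3 was at 7.70, 8.69 and 7.998, and Socs1 was below the limit at 2.96, 2.87 and 3.11. No gene of this list had a 2-fold range, and the median SD was 0.12.

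Homing receptors of progenitors were high. Ccr9, the receptor that guides progenitors to the thymus and also marks plasmacytoid dendritic cells, was at 13.57, 13.97 and 14.15, lowest in WT1. Selplg, the ligand of selectins, was at 13.74, 13.70 and 13.75 and Cd44 at 13.36, 13.40 and 13.27. Cxcr4, the receptor that holds precursors in the marrow, was at 11.83, 11.81 and 11.73. In all, 17 of 21 genes of this list were above the limit, beside 55.4 percent of all genes. Ccr1, a receptor of myeloid cells, was the most variable member, at 4.29, 5.41 and 4.77.

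Genes of the Notch pathway, which leads such progenitors towards T cells, were measured from receptor to target. Notch1 was at 12.92, 12.90 and 12.84 and Notch2 at 12.56, 12.54 and 12.65, the latter with its other probe set not above the limit. Rbpj, the DNA-binding partner of Notch, was at 11.62, 11.67 and 11.76 and the protease gene Adam10 at 13.23, 13.32 and 13.29. The target genes Hes1 and Dtx1 were above the limit too, at 9.07, 9.37 and 9.11 and at 4.49, 5.18 and 4.87. The ligand genes Dll1 and Jag1 were near the limit, with means of 4.09 ± 0.59 and 4.10 ± 0.23. Of the whole list 16 of 22 genes were above it, beside 55.4 percent of all genes. All 21 measured genes of the PI3K, RAS-MAPK and NF-kB routes were above the limit, and none of them had a 2-fold range. Nfkbia, the inhibitor of NF-kB, was at 13.60, 13.80 and 13.76, and Foxo3 was at 11.79, 11.80 and 11.82. Relb, a subunit of the alternative NF-kB route, had the largest SD of this list, at 5.09, 5.99 and 5.12.

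Markers of plasmacytoid dendritic cells were common in these sorts. Of 17 measured markers, 15 were above the limit, beside 55.4 percent of all genes, and the list median was 11.86. Besides Irf8, Tcf4, Ccr9, Spib and Siglech these included Ly6d, at 12.72, 12.80 and 13.05, a surface protein of lymphoid progenitors as well, and Bst2, at 12.44, 12.23 and 12.18. Several of these genes are counted in other lists too, so that the counts are not separate. Irf8, Tcf4 and Spib are also in the B lineage factor list, Ccr9 in that of homing receptors and Bst2 in the interferon list. Tlr7, the sensor of single-stranded RNA, was at 10.24, 10.25 and 10.55, while Tlr9, the sensor of DNA, was near the limit at 4.46, 4.56 and 4.70. In 15 of the 17 markers WT1 was the lowest mouse, beside 41.2 percent of all genes, and with ribosomal centring it was so in 14, beside 31.7 percent. WT1 also had the lowest 3' over 5' ratios, whose part in this was not tested. The kallikrein gene Klk1 was the most variable of the list, at 11.12, 12.87 and 11.97.

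Of 17 measured T cell genes, 11 were above the limit, or 64.7 percent, beside 55.4 percent of all genes, and the list median of 5.40 lay under that of all genes. Cd28, a costimulatory receptor, was at 10.41, 10.52 and 10.79 and Thy1 at 8.65, 9.81 and 9.23. The CD3 genes lay close to the limit in WT1 and WT3 and higher in WT2, with Cd3g at 4.53, 7.04 and 4.59 and Cd3d at 4.02, 6.61 and 4.49. Gata3, the factor of T cell commitment, was below the limit at 3.96, 4.25 and 3.80, and Bcl11b near it at 4.48, 4.47 and 4.34. Lat, the adaptor of the T cell receptor, was at 6.33, 7.36 and 6.69. Of the 16 genes over the limit on at least 1 array, 7 ranged over at least 2-fold, beside 5.43 percent of all genes. Among all genes with a mean log2 level from 5 to 7, where the list median lay, the share was 15.0 percent. WT2 was the highest in 10 of the 16, beside 34.8 percent of all genes. WT1 was the lowest in 12, beside 41.2 percent, or in 11 with ribosomal centring, beside 31.7 percent.

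NK cell genes were found although the sort excluded NK1.1+ cells. Of the 15 over the limit on at least 1 array, 12 ranged over at least 2-fold between mice, beside 5.43 percent of all genes. Among all genes with a mean log2 level from 5 to 7, where the list median of 6.14 lay, the share was 15.0 percent. Klrd1, which encodes CD94, was level at 12.75, 12.99 and 12.96. Gzma, a granzyme, was at 9.79, 12.20 and 11.17, Ccl5, a chemokine, at 8.40, 11.68 and 9.98, and Nkg7, a granule protein, at 8.02, 10.25 and 9.09. Prf1, which encodes perforin and has another probe set that was not above the limit, was at 6.25, 8.55 and 6.14 and Eomes, a factor of NK cells, at 5.38, 7.92 and 6.64. Each of these genes was highest in WT2. In the list 14 of 15 genes over the limit on at least 1 array were highest in WT2, beside 34.8 percent of all genes. WT1 was the lowest in 13, beside 41.2 percent. With ribosomal centring both counts were the same, beside 33.6 and 31.7 percent. WT2 was at least 2-fold over both others in 8 of the 15, beside 2.0 percent of all genes. WT1 was at least 2-fold under both others in 7, beside 0.382 percent. Zbtb16, the factor of innate-like lymphocytes, was below the limit at 4.16, 3.94 and 3.71.

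**Figure D3:**
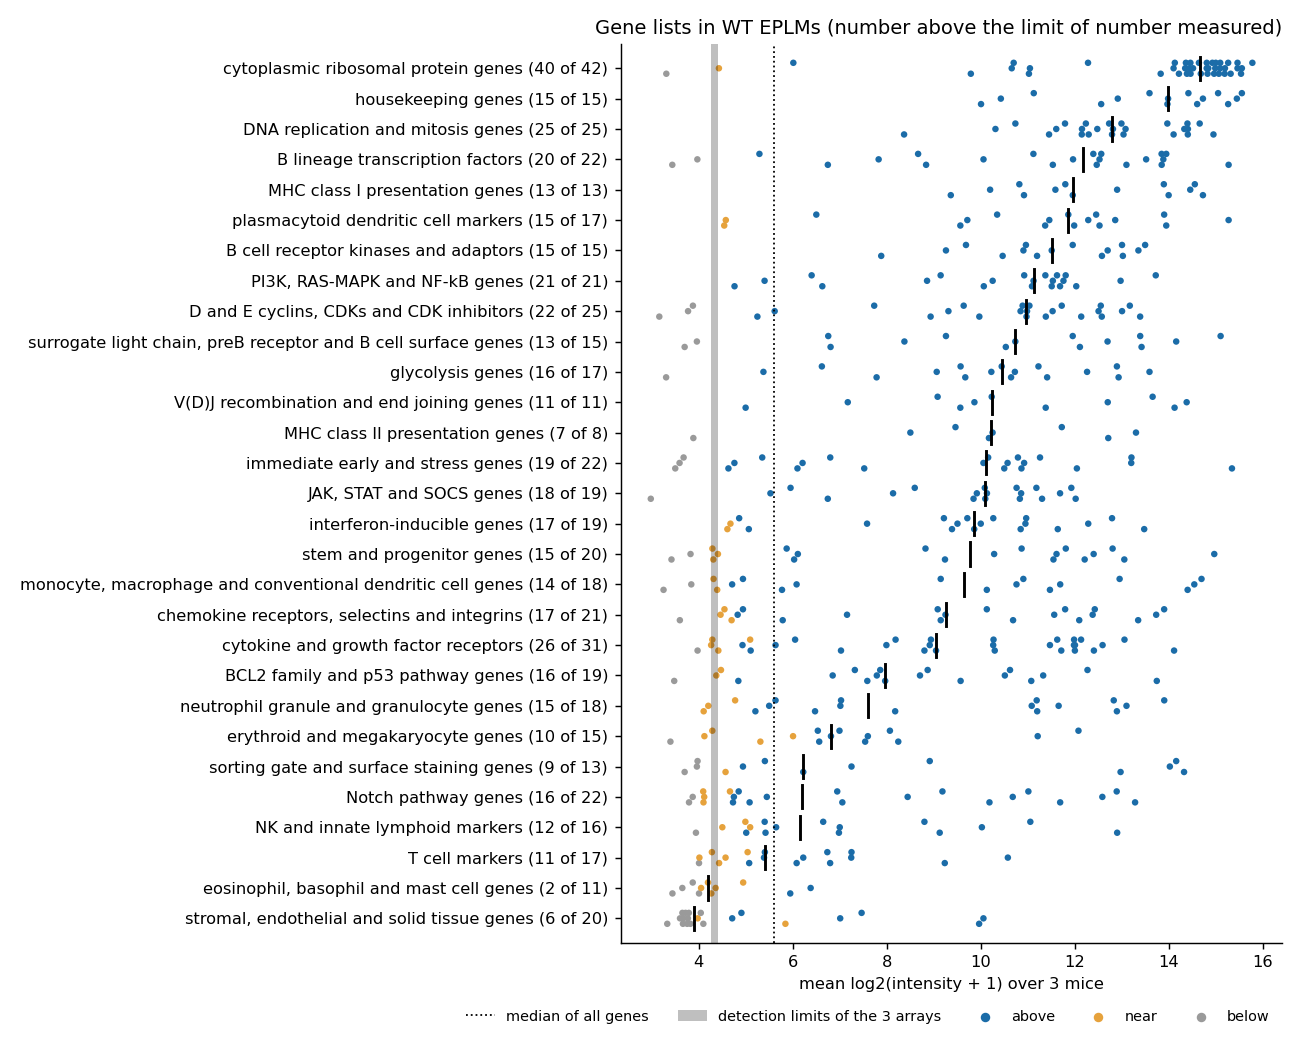
Mean log2(intensity + 1) over the 3 mice (x axis) of the members of the gene lists (rows), 1 point per gene coloured by class against the detection limit, with the median of each list as a black bar the median of all genes as a dotted line and the detection limits as a grey band. Lists of the B lineage, of dividing cells and of household functions lie to the right of the dotted line, and those of stromal and of eosinophil, basophil and mast cells lie at or under the limits.

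The genes of neutrophil granules had the largest median SD of all lists, 1.15. S100a8 was at 13.06, 15.07 and 13.57 and S100a9 at 11.84, 14.39 and 12.24, which encode the calprotectin proteins of neutrophils. Ngp was at 12.28, 14.53 and 12.48, Ltf, which encodes lactoferrin, at 10.29, 13.06 and 10.24, and Camp, which encodes the peptide cathelicidin, at 10.05, 12.97 and 10.54. WT2 stood above both other mice, which were closer to each other. Of the 17 genes over the limit on at least 1 array, 17 were highest in WT2, beside 34.8 percent of all genes, and 13 were at least 2-fold over both others, beside 2.0 percent. The summed intensity of the list was 30525, 129805 and 33320. Mpo, the myeloperoxidase of early granules, differed from these, at 12.13, 12.18 and 10.65, where WT3 was the low mouse. Elane, neutrophil elastase, was near the limit at 3.77, 4.62 and 3.91. Whether granulocytes in the sorts moved these values was not tested.

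Monocyte, macrophage and dendritic cell genes were mostly above the limit, 14 of 18, beside 55.4 percent of all genes. Mpeg1, a pore-forming protein of phagocytes, was at 14.79, 14.80 and 14.49 and Ctss, the protease cathepsin S, at 14.47, 14.58 and 14.56. Lyz1 and Lyz2, the lysozyme genes, were higher in WT2, at 14.20, 15.04 and 13.95 and at 11.42, 12.80 and 10.85. They are near-identical genes, whose probe sets can share a signal. Cd14, a receptor of monocytes, was below the limit at 4.05, 3.79 and 3.68, as was Xcr1, a receptor of cross-presenting dendritic cells, at 3.25, 3.15 and 3.35. Adgre1, which encodes F4/80 of macrophages, was at 6.15, 6.95 and 5.14, with WT3 the lowest. Vcam1, an adhesion molecule, was at 10.21, 11.19 and 8.49, Mrc1, the mannose receptor of macrophages, at 6.82, 7.91 and 4.93 and Fabp4, a lipid carrier, at 6.21, 8.08 and 4.002. These last 3 genes were picked after their values were seen and are not members of this list. Vcam1 belongs to the list of stromal, endothelial and solid tissue genes, and Mrc1 and Fabp4 belong to none. The median SD of the monocyte, macrophage and dendritic cell list itself was 0.18.

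In the list of erythroid and megakaryocyte genes, 12 of the 14 genes over the limit on at least 1 array were lowest in WT3, beside 24.9 percent of all genes, and 7 were at least 2-fold lower there than in both others, beside 0.480 percent. WT2 was the highest in 8, beside 34.8 percent. The list was divided into erythroid and platelet members after the values were seen. Slc4a1, the anion exchanger of red cells, was at 12.64, 12.38 and 11.20 and Car2, a carbonic anhydrase, at 11.68, 11.61 and 10.33. Klf1, the erythroid factor, was at 7.44, 7.02 and 5.97 and Alas2, the first enzyme of heme synthesis in red cells, at 7.37, 7.48 and 6.11. WT3 was the low mouse in these genes, and it was the lowest in 9 of the 10 erythroid members, at least 2-fold under both others in 7. The single-symbol probe set of Hba-a1, an alpha globin gene, was below the limit at 3.28, 3.35 and 3.55. Ppbp and Pf4, chemokine genes of platelets, were at 5.66, 11.82 and 5.30 and at 6.93, 11.45 and 6.34. Vwf, which encodes von Willebrand factor, was at 4.29, 9.23 and 4.48, and Itga2b, a platelet integrin, at 4.23, 7.36 and 4.34. WT2 was the high mouse in all 5 megakaryocyte and platelet members and at least 2-fold over both others in 4. The summed intensity of these 5 members was 221, 7204 and 173, and that of the erythroid members 10900, 9901 and 4100. WT3 also had the highest 3' over 5' ratios. The part of these ratios, of platelets or of red cell precursors in these values was not tested.

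Ppbp with Pf4, and S100a8 with S100a9, are neighbours in the genome, with no measured gene between the members of a pair, and all 4 genes were at least 2-fold higher in WT2 than in both other mice. Their RefSeq promoters (build GRCm38.p6, 300 bases) are shown as examples, picked after their values were seen, of the 13 neighbouring pairs with both genes at least 2-fold over the other mice in WT2. Capitals mark TATAAA, the TATA box, AGATAA, a form of the GATA site, and GAGGAAGT, a form of the Ets site. All were searched in all 4 promoters and on both strands, and ACTTCCTC is GAGGAAGT on the other strand. Of all 32851 promoters of the table, 13.6 percent hold TATAAA, 11.2 percent AGATAA and 3.20 percent GAGGAAGT. The TATAAA of Ppbp and of S100a8 begins 30 bases before the start of the gene in both, and Ppbp has a further TATAAA 8 bases before its start and the TATAAA of S100a9 lies at the start itself. The AGATAA of S100a9 begins 30 bases before the start and that of Pf4 lies after it. The promoters are at chr5:90768268-90768567 on the plus strand for Ppbp, chr5:90772185-90772484 on the plus strand for Pf4, chr3:90668821-90669120 on the plus strand for S100a8 and chr3:90695672-90695971 on the minus strand for S100a9.
Ppbp: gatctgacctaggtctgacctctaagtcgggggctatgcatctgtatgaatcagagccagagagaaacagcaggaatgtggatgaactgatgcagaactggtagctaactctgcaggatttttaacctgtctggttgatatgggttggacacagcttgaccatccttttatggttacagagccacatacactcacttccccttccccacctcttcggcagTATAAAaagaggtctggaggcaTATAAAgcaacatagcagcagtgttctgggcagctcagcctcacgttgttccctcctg
Pf4: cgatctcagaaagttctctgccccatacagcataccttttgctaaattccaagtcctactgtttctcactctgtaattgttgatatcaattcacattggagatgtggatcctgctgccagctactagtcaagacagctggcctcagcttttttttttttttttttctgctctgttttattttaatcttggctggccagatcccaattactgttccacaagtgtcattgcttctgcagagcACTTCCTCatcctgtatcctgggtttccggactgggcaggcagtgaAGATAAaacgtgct
S100a8: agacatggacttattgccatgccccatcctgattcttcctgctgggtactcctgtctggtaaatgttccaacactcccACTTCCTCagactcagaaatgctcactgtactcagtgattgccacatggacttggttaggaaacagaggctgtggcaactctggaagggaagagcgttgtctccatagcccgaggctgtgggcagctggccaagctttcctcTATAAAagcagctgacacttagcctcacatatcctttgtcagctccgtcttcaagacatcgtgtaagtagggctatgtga
S100a9: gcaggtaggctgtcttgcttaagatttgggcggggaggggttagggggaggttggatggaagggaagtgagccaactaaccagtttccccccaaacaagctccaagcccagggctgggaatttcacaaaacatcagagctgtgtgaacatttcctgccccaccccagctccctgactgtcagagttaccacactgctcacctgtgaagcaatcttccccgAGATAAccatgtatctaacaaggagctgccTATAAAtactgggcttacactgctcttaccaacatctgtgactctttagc

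Of 11 eosinophil, basophil and mast cell genes, 2 were above the limit, beside 55.4 percent of all genes. Over the limit on at least 1 array were 7 of them, of which 6 ranged over at least 2-fold between mice, beside 5.43 percent of all genes. WT2 was the highest mouse in 6 of the 7, beside 34.8 percent, and WT1 the lowest in 7, beside 41.2 percent, or in 6 with ribosomal centring. Since only 2 of the 11 genes were above the limit, a gene could enter these 7 through 1 high array. The shares of all genes do not allow for this, so that no excess can be read from these counts. The summed intensity of the list was 161, 780 and 267. Prg2, the major basic protein of eosinophils, was at 3.69, 8.24 and 5.90, and Fcer1a, the IgE receptor of mast cells and basophils, was below the limit at 3.51, 3.47 and 3.34. Of 20 stromal, endothelial and solid tissue genes, 6 were above the limit, beside the same share, and 12 below it, among them Col3a1, Alb, Lepr and Kdr. Cdh1, which encodes E-cadherin, was at 9.70, 10.05 and 10.41 in these sorts. Col1a2, a chain of type I collagen, was at 4.20, 4.16 and 9.16, so that 1 mouse alone was high. The partner chain Col1a1 was at 3.73, 3.59 and 4.60. Both were highest in WT3.

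Genes of MHC class I were steady between mice and those of class II were not. All 13 class I genes were above the limit and none had a 2-fold range, with B2m at 14.69, 14.74 and 14.74, H2-D1 at 14.40, 14.58 and 14.37 and H2-K1 at 13.87, 14.14 and 13.97. Class II genes differed, with H2-Aa at 11.92, 13.32 and 12.89, H2-Ab1 at 9.64, 10.98 and 10.12 and Cd74, the invariant chain, at 9.05, 11.05 and 10.41. WT1 was the low mouse in these 3 genes and in 5 of the 7 class II genes over the limit, beside 41.2 percent of all genes as deposited and 31.7 percent with ribosomal centring. H2-Ob, a chain of the class II modulator DO, was level at 13.41, 13.15 and 13.34. Ciita, the activator of class II transcription, was below the limit at 3.93, 3.95 and 3.77, and none of its 3 probe sets was above it.

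Genes of dividing cells were high throughout. All 25 measured genes of DNA replication and mitosis were above the limit, with a median level of 12.79. Mcm5, a subunit of the replicative helicase, was at 14.95, 14.99 and 14.90, and Mki67 at 14.50, 14.48 and 14.23. Ccnb2, a cyclin of mitosis, was at 13.06, 12.83 and 12.53. WT1 was the highest mouse in 24 of the 25 genes, all but Mcm5, beside 25.5 percent of all genes, although its median lead over the mean of the other 2 was only 0.19. The count was the same with ribosomal centring, where WT1 was the highest in 33.9 percent of all genes. WT1 also had the lowest 3' over 5' ratios, whose part was not tested. Among cyclins and kinases of the G1 phase, Cdk6 was at 13.43, 13.29 and 13.44, Ccnd3 at 13.15, 12.85 and 13.002 and Ccnd2 at 12.60, 11.69 and 12.11. The inhibitor gene Cdkn2a was below the limit at 3.22, 3.15 and 3.11. Of the survival genes, Mcl1 was at 13.71, 13.77 and 13.75 and Bcl2 at 12.30, 12.16 and 12.34, both level. Gadd45b, a gene of the stress response, was at 8.44, 9.37 and 8.79, and Ada, adenosine deaminase, at 10.49, 10.67 and 10.70.

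Immediate early genes differed between mice, and interferon-inducible genes were present in all animals. Fos was at 12.53, 13.54 and 13.52 and Jun at 9.80, 10.86 and 10.83, both lowest in WT1. WT1 was the lowest mouse in 17 of 19 immediate early and stress genes, beside 41.2 percent of all genes, and in 15 with ribosomal centring, beside 31.7 percent. The part of the 3' over 5' ratios, lowest in WT1, was not tested here either. Hspa1b, a heat shock gene, was at 5.82, 8.02 and 6.54. Of 19 interferon-inducible genes, 17 were above the limit. Ifi35 was at 13.36, 13.46 and 13.61 and Ifi47 at 12.66, 12.86 and 12.85, and Rsad2, an antiviral enzyme, was the most variable at 9.97, 10.75 and 8.85.

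Housekeeping genes varied little between mice, as did other genes of their level. All 15 were above the limit, with a median level of 13.98 and a median SD of 0.08. The median SD was 0.15 for the genes over the limit on at least 1 array, most of them dimmer. It was 0.07 for all genes with a mean log2 level over 13. Eef1a1, an elongation factor of translation, was at 15.47, 15.44 and 15.42, Actb at 14.66, 14.63 and 14.51 and Hprt at 13.03, 12.91 and 12.80. Tbp, the TATA-binding protein, was at 10.50, 10.29 and 10.49, and Polr2a, the large subunit of RNA polymerase II, at 9.95, 10.18 and 9.88. The other probe set of each of these was not above the limit. Ribosomal protein genes were the brightest list, with a median level of 14.66 and a median SD of 0.05. They made up 7 of the 20 genes with the highest means, led by Rps29 at 15.78, 15.78 and 15.76. Other genes of that group were Cfl1, which encodes cofilin, at 15.54, 15.66 and 15.55, and Laptm5, a lysosomal protein of blood cells, at 15.50, 15.51 and 15.45. Of 42 ribosomal protein genes, Rps16 was below the limit at 3.20, 3.52 and 3.21 and Rps27 near it at 4.28, 4.47 and 4.53, each read by its own single-symbol probe set. Glycolysis genes were nearly all present, 16 of 17, with Pgk1 at 13.53, 13.56 and 13.66. Eno2, an enolase of neurons, was below the limit at 3.21, 3.23 and 3.47.

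The spread between mice depended on the level. Of the 11249 genes over the limit on at least 1 array, 611 ranged over at least 2-fold between mice, which is 5.43 percent, and 162 over at least 4-fold. The median SD was 0.25 for genes with a mean log2 level from 5 to 7 and fell to 0.07 for those over 13. With WT2 left out, 189 genes had such a range, with WT1 left out 414, and with WT3 left out 387. Each mouse was measured on 1 array, so that these differences carry no test.

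**Figure D4:**
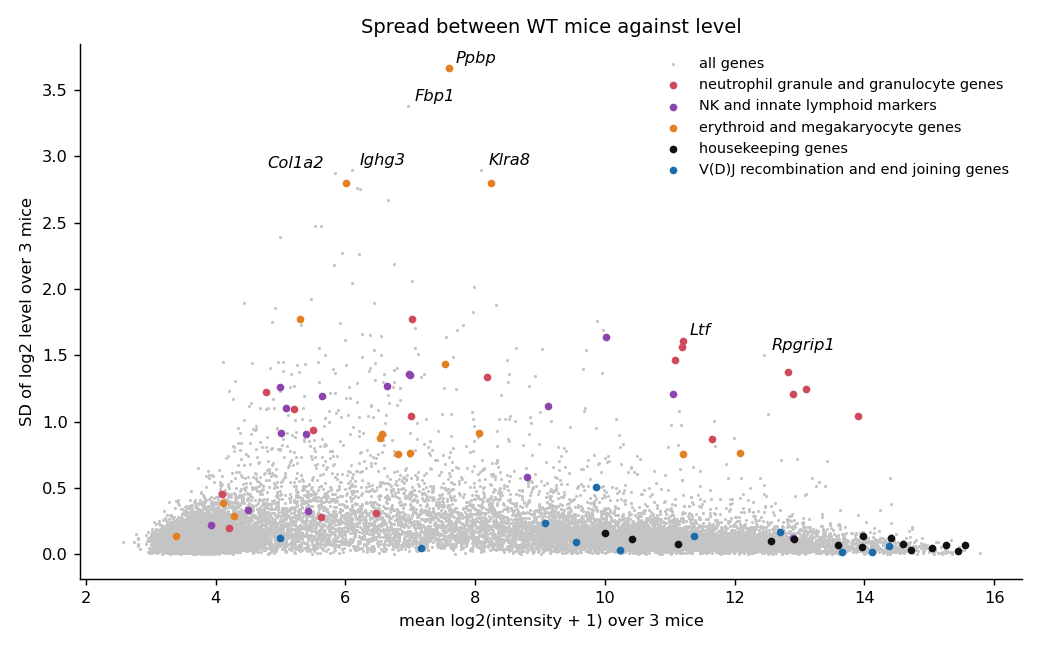
SD of the log2 level over the 3 mice (y axis) against the mean log2(intensity + 1) (x axis), 1 grey point per gene, with the members of 5 gene lists in colour. Genes of neutrophil granules, NK cells and the erythroid and megakaryocyte list rise above the cloud. Housekeeping genes lie within it, with a median SD of 0.08 beside 0.07 for all genes with a mean log2 level over 13.

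WT2 carried most of the spread. It was at least 2-fold over both other mice in 225 genes and under both in 20, which is 0.178 percent. WT1 was over both in 13 genes, or 0.116 percent, and under both in 43. WT3 was over both in 24 genes, or 0.213 percent, and under both in 54. Of the 225 genes high in WT2, 52 had another probe set over the limit. It was highest in WT2 as well in 43 of them, and by at least 2-fold in 16. The smaller shift of all genes between arrays was open to scaling. WT3 was the highest mouse in 39.7 percent of genes and WT2 the lowest in 33.9 percent as deposited, and in 32.5 and 36.1 percent with ribosomal centring.

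**Figure D5:**
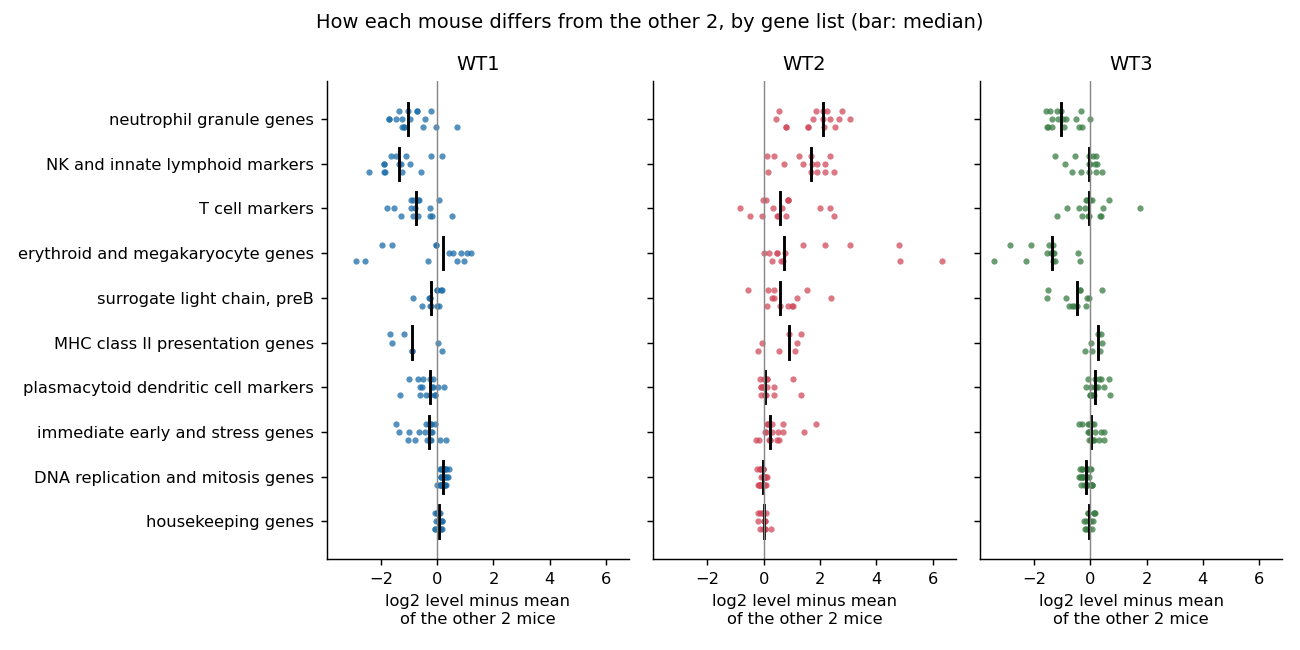
Log2 level of a mouse minus the mean of the other 2 (x axis) for the members of 10 gene lists (rows), 1 panel per mouse and 1 point per gene over the limit on at least 1 array, with the median of the list as a black bar. Neutrophil granule and NK genes lie to the right in WT2, erythroid and megakaryocyte genes to the left in WT3 and most class II genes to the left in WT1, while housekeeping genes stay close to 0 in all panels.

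Among the 20 genes with the largest ranges between mice were Ppbp, Pf4, Vwf, Tubb1, a tubulin of platelets, at 4.51, 9.36 and 4.66, and Clec1b, a platelet lectin, at 4.08, 9.33 and 5.26. Fbp1, an enzyme of gluconeogenesis, was at 4.998, 10.86 and 5.03 and Cd177, a neutrophil surface protein, at 6.60, 10.30 and 7.03. In all of these WT2 was the high mouse. Low in WT2 were Klra8 at 9.57, 4.76 and 9.94 and Klra7 at 8.04, 3.58 and 8.35, neighbouring genes of the Ly49 family of NK receptors. Klra5 of the same family was at 3.57, 6.60 and 3.12, high in WT2 alone. Members of this family are near-identical and differ between mouse strains, so that a probe set may read more than its own gene. Pgr, the progesterone receptor, was low in WT2 as well, at 8.80, 5.88 and 9.23.

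Some genes set WT1 or WT3 apart. Ighg3, a heavy chain constant region gene, was at 9.45, 4.40 and 4.48, and Hbb-y, an embryonic globin gene, at 6.89, 3.91 and 3.81, both high in WT1 alone. Ndrg1 was at 8.02, 11.02 and 10.87 and Tmem71 at 7.86, 11.11 and 10.65, both low in WT1. Rpgrip1 was at 13.20, 13.44 and 10.73, low in WT3 although it was among the brighter genes in the other mice. Pigt, a gene of the GPI anchor, was at 5.73, 5.01 and 8.60, high in WT3 alone. None of these 6 genes belongs to the cell type lists used here.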

How the data were processed

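RNA of sorted WT EPLMs was hybridised to mouse whole-genome arrays, and the authors deposited 1 intensity per probe set, computed with GCRMA, whose version is not given in the sources used here. The sorted intensities were the same on all 3 arrays, that is quantile normalized, with a median of 20.0. The labels and the study's methods name different numbers of labelling cycles. The precision is limited by the number of arrays.

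Control features (64) were left out, as were the 932 probe sets with several gene symbols, and the 9160 without a symbol were tested but not named. The offset was 1. Limits and calls were computed with limma 3.58.1 (lmFit, eBayes with an intensity trend, Benjamini-Hochberg) in R 4.3.3, tested on simulated data, and the rest with Python 3.11.15 and pandas 2.3.3. For ribosomal centring the median of the ribosomal protein genes was set equal on all arrays. Genes were named by rule: the markers, the gate and housekeeping lists, genes the study discusses, the 4 highest and the most variable member of every other list and its absent markers, the 20 highest genes, the 20 largest ranges and the 5 most extreme genes per mouse and direction. Further list members were picked after their values were seen. The members and lists were chosen with earlier results of these data known. Of 573 listed genes, 54 had no probe set of 1 symbol. A check of promoter features by class was void, since 79.4 percent of genes had a promoter in the table. The alternatives were other offsets, floors, normalizations, probe set rules, limits, variance estimates and thresholds, and leaving out each array.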

Additional observations from a re-analysis of the deposited data

How the results depend on the processing

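Of 3872 comparisons of 233 genes named by rule with an alternative setting, 3580 kept their direction and call, 158 lost the call, 74 gained one and 60 moved to the other side of the limit. The count of genes above the limit stayed between 7151 and 10503, and between 9927 and 10041 without 1 array, but was 4611 of the 9010 genes with a second probe set when that was read. With it the count of genes ranging over 2-fold was 354, and, among genes named in the text, the distance from the limit turned to -0.13 for Hoxa9, -0.22 for Igll1, -0.38 for Irf4, -0.058 for Kit, -0.74 for Notch2, -0.36 for Pax5, -0.70 for Pgr, -0.57 for Polr2a, -0.49 for Prf1, -0.67 for Stat5a, -0.15 for Tbp and -0.086 for Xrcc6 on the log2 scale. With the limit at the 99th percentile 311 genes ranged over 2-fold, and, again among genes named in the text, the distance turned to -1.48 for Adgre1, -0.56 for Alas2, -2.73 for Ccr1, -2.17 for Cd3g, -0.31 for Cd8a, -1.33 for Clec1b, -2.71 for Dtx1, -0.91 for Eomes, -1.46 for Fabp4, -0.59 for Fbp1, -0.76 for Hspa1b, -0.81 for Ikzf3, -2.62 for Itgam, -2.03 for Jak3, -0.75 for Klf1, -0.90 for Klra7, -0.76 for Lat, -1.001 for Mrc1, -0.75 for Ms4a1, -2.27 for Pax5, -1.11 for Pigt, -0.58 for Prf1, -1.61 for Prg2 and -2.16 for Relb. Without probe sets marked as less specific the distance among these genes was -0.23 for Igll1, -0.75 for Lyz1 and -0.80 for Socs3. Without 1 mouse the count of 2-fold ranges was 189 to 414, lowest without WT2. At 4-fold it was 162, and the counts of genes with 1 mouse apart were 3 up and 4 down for WT1, 71 and 3 for WT2, and 5 and 10 for WT3. An offset of 16 gave 26 genes down in WT1, 13 down in WT2 and 14 up in WT3. Beyond what these settings change by construction, the cause was not tested. No paired analysis was possible because only 1 group was used.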
